A study of Rattus norvegicus with 9 samples.

Results

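The genes described are those of the proteasome in rat gastrocnemius, the large muscle of the calf. They were chosen by symbol: every probe set whose only gene symbol in the platform annotation begins with Psma, Psmb, Psmc, Psmd, Psme, Psmf or Psmg. The rule gave 60 of 31042 probe sets, in 46 genes. Psmc3ip and Psme3ip1 carry the name but encode interacting proteins, so 58 probe sets in 44 genes of subunits and cofactors remained: 16 genes of the 20S core, 17 of the 19S cap, 3 activators, 1 inhibitor and 7 assembly chaperones. Another 6 probe sets name a Psm gene together with other genes and were not used, which left Psmb6 and Psme3 without a value.

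Male Wistar rats of 250 g carried osmotic pumps for 7 days. Those of the vehicle group received propylene glycol, those of the dexamethasone group the synthetic glucocorticoid dexamethasone at 0.7 mg/kg/day in propylene glycol, and those of the combination group the same dexamethasone together with testosterone. The testosterone dose is 28 mg/kg/day in the sample labels and 20 mg/kg/day in the series design, and which is right was not settled. Each group had 3 animals, with 1 array per animal on RNA of a 20 mg piece of muscle. The p-values thus measure the spread between arrays, which mixes differences between animals with those between the technical array sets described below. The comparisons ask how the glucocorticoid and the added androgen bear on muscle transcripts.

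The proteasome is the protease that degrades proteins marked with ubiquitin, and in muscle it takes much of the protein breakdown during wasting. Its 20S core is a barrel of stacked alpha and beta rings, with the cutting sites on beta subunits inside. The 19S cap binds the ubiquitin chain, removes it, and unfolds and feeds in the substrate by a ring of ATPases. Other activators open the barrel in its place: PA28, made of Psme1 and Psme2 and induced by interferon, and PA200, encoded by Psme4.

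Levels are log2 of the deposited intensity plus 16, quantile normalized, and each value belongs to its own probe set, so levels of different genes are not compared. All 12 markers of skeletal muscle fibres passed the filter on dim probe sets, and their summed normalized intensity was 278487 to 333275 per array. The sum hides a difference in fibre markers. Combination replicate 1 had Myh7 at 8.74 and Myh2 at 12.71, against 14.14 to 14.96 and 14.22 to 14.78 in the other arrays. The arrays fell into 3 technical sets. Set A (vehicle replicates 1 and 3, dexamethasone replicate 1, combination replicate 1) was deposited without common scaling, with trimmed means of 113.3 to 206.8, and the other 5 arrays had a trimmed mean of 500. Set C (dexamethasone replicate 3 and combination replicate 3) had Gapdh 3' signals 4.94 and 6.22 times the 5' signals, against 1.06 to 1.17 times elsewhere, and holds no vehicle array. Set B holds replicate 2 of every group. Values within sets are given beside the results.

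Genes of the 19S cap stood higher after dexamethasone, but no single proteasome gene passed the test. All 17 cap genes had a positive log2 change against vehicle, with a median of 0.56, against 0.24 for the 20S core and 0.04 for all 14217 genes. The PA28 genes Psme1 and Psme2 and the 3 immunoproteasome genes had negative changes. Without scaling between arrays, Psme2, Psmb10 and Psme1 were instead at 0.01, 0.24 and 0.46 while the median of all genes was 0.60, and Psmb8, which was dim, was at 0.28 without dexamethasone replicate 2. With testosterone added, all 17 cap genes stood below the dexamethasone level, with a median of -0.44, and against vehicle their median was 0.04. Relative to all genes, that last median was 0.009, but 0.20 with median scaling and 0.24 without scaling between arrays. In bulk muscle, fewer cells of a type and less RNA per cell cannot be told apart.

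In the limma test, 0 of 54 tested member probe sets passed an adjusted p of 0.05 for dexamethasone against vehicle, where 1.05% of all 18625 probe sets tested passed (0.569% higher and 0.483% lower). That split was 106 higher and 90 lower probe sets, against 94 and 41 with median scaling and 22 and 1 without scaling between arrays. The lowest adjusted p among members was 0.0561. At an unadjusted p under 0.05, 19 members were higher (35.2%, background 7.88%) and 4 lower (7.41%, background 7.57%). In 26 of the 54 (48.1%) the 3 dexamethasone arrays lay entirely above the 3 vehicle arrays, against 12.5% of all probe sets, and in 5 (9.26%) entirely below, against 10.4%. The share of members above vehicle thus exceeded the background, and the share below did not. Under other settings, 0 to 6 member probe sets passed, and the largest number came when limma's variance was fitted robustly with an intensity trend.

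**Figure D1:**
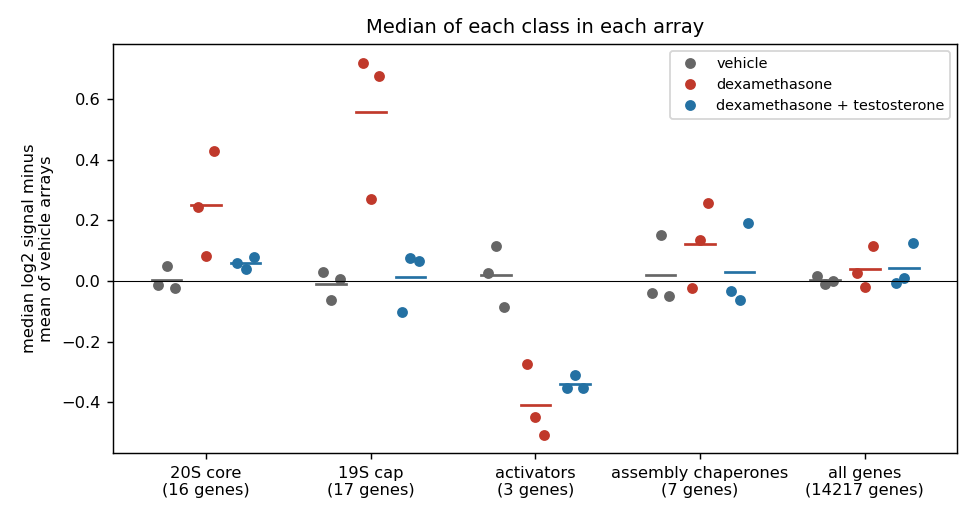
Each point is the median, over the genes of a class, of the log2 signal of an array minus the mean of the 3 vehicle arrays, and bars mark the mean of the 3 points of a group. The 19S cap stood at 0.27 to 0.72 in the dexamethasone arrays and at -0.10 to 0.08 in the combination arrays. The activator median, over only 3 genes, stood below 0 in all 6 treated arrays (quantile normalized values). Of these 3 genes, Psme4 stood above vehicle after dexamethasone, by 1.17. Without scaling, the activator median change from vehicle was 0.46 for dexamethasone and 0.24 for the combination, where the median of all genes was 0.60 and 0.38.

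The cap medians of the single arrays, relative to the vehicle mean, were 0.72, 0.27 and 0.68 in the dexamethasone group. In the vehicle arrays they lay between -0.06 and 0.03, and in the combination arrays they were -0.10, 0.08 and 0.06. The dexamethasone arrays were thus separate from the other 6, and all 17 cap genes were above the vehicle mean in each of them. Within array sets, the cap median for dexamethasone against vehicle was 0.68 in set A and 0.36 in set B. The core medians were closer together, at 0.25, 0.08 and 0.43 in the dexamethasone arrays and -0.02 to 0.05 in the vehicle arrays. The core median change was 0.27 in set A but 0.005 in set B, and without dexamethasone replicate 3 it was 0.16.

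The alpha ring of the core, whose subunits gate the entry to the barrel, had all 7 genes above vehicle, with changes from 0.22 to 0.50 and a median of 0.34. The largest was in Psma7, at 0.50 ± 0.20 (log2 ± SE, n = 3 per group, limma adjusted p = 0.271). Its dexamethasone arrays were 13.03, 12.59 and 13.12 and its vehicle arrays 12.54, 12.33 and 12.38. The groups of Psma7 did not overlap, nor did those of Psma1, Psma5 and Psma6. The structural beta subunits, which complete the ring without a cutting site, had a median of 0.25, led by Psmb3 at 0.65 ± 0.21 (adjusted p = 0.174). Psmb3 was 10.97, 11.32 and 10.72 in vehicle and 11.73, 11.49 and 11.73 in dexamethasone, so the groups were separate but vehicle replicate 2 came within 0.17 of its set B partner.

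The 2 measured constitutive cutting subunits showed the smallest differences of the core between dexamethasone and vehicle. Psmb5, which carries the chymotrypsin-like activity, was 12.75, 12.82 and 12.48 in vehicle, 12.61, 12.59 and 12.89 in dexamethasone and 12.86, 12.80 and 13.11 in the combination. All 3 groups overlapped. The dexamethasone change of Psmb5 was 0.01 ± 0.19 (adjusted p = 0.985), at -0.01 in set A and -0.23 in set B. Psmb7, with the trypsin-like activity, had means of 12.71 ± 0.06, 12.86 ± 0.20 and 12.73 ± 0.13 (SD, n = 3) in vehicle, dexamethasone and the combination, and its groups overlapped as well. Psmb5 also has 2 dim probe sets that were not tested, at 0.39 and -0.49 for dexamethasone against vehicle.

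The immunoproteasome subunits replace the constitutive ones in cells exposed to interferon, where the complex makes peptides for antigen presentation. Psmb9 was 7.25, 7.15 and 7.17 in vehicle, 6.26, 6.40 and 6.83 in dexamethasone and 7.15, 6.82 and 7.10 in the combination. All dexamethasone arrays of Psmb9 lay below all vehicle arrays, and dexamethasone replicate 3 overlapped the combination. The difference from vehicle was -0.70 ± 0.20 (adjusted p = 0.140), at -0.95 in set A and -0.76 in set B. Psmb10 was 7.97, 8.06 and 7.74 in vehicle, 7.35, 7.13 and 8.04 in dexamethasone and 7.74, 7.95 and 8.81 in the combination. Replicate 3, of set C, was the highest array of Psmb10 in both hormone groups, and the groups overlapped, with a change of -0.41 ± 0.33 (adjusted p = 0.593). Without scaling between arrays the change of Psmb10 was 0.24, below the median of all genes of 0.60.

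Psmb8, the partner of Psmb5 in the immunoproteasome, was dim: 6.43, 5.83 and 6.37 in vehicle, 6.32, 4.46 and 6.66 in dexamethasone and 6.37, 4.58 and 5.79 in the combination. Replicate 2, of set B, was the lowest array of each group, and in the hormone groups it lay below 5.75, the 40th percentile of the probe set means. The change of Psmb8 after dexamethasone was -0.40 ± 0.60 (adjusted p = 0.797), and 0.28 without dexamethasone replicate 2. Transcripts of paired subunits were compared as the log2 difference of each immunoproteasome subunit from its constitutive partner. The tests were exact two-sided permutation tests, whose smallest p with 3 against 3 is 0.1. Exchange of subunits in the particle was not measured. Psmb8 minus Psmb5 differed by -0.41 between dexamethasone and vehicle (exact p = 0.7, adjusted 0.84 over 6 tests), and by 0.21 without dexamethasone replicate 2. Psmb10 minus Psmb7 differed by -0.57 (exact p = 0.2, adjusted 0.4), at -0.91 with array set as a block. The pair of Psmb9 and Psmb6 was not tested, as Psmb6 has no value here.

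Blood-derived cells hold much of the immunoproteasome of a tissue, and their markers are given for that reason. The summed normalized intensity of 12 macrophage markers was 2252 to 2561 in vehicle, 1214 to 3898 in dexamethasone and 1137 to 2770 in the combination, and 11 of the 12 passed the filter, Adgre1 being the exception. Of 12 lymphocyte markers 10 were measured, with sums of 262 to 394, 211 to 297 and 227 to 231. Only 3 lymphocyte markers passed the filter, and Cd3d, Cd3e, Cd8a, Cd8b, Cd79b, Ms4a1 and Nkg7 did not. No macrophage or lymphocyte marker passed the test in any comparison. The part of these cells in the immunoproteasome and PA28 values was not tested.

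In the 19S cap, the 6 ATPases that unfold the substrate had changes from 0.15 to 0.73 after dexamethasone, with a median of 0.37. Psmc5 was 11.86, 11.94 and 11.86 in vehicle, 12.84, 12.29 and 12.66 in dexamethasone and 11.90, 11.94 and 11.85 in the combination. Its vehicle and combination arrays shared the same narrow range and all dexamethasone arrays stood above it, by 0.71 ± 0.19 (adjusted p = 0.112). Psmc2 was 12.95, 12.71 and 12.93 in vehicle and 13.68, 13.29 and 13.83 in dexamethasone, a difference of 0.73 ± 0.21 (adjusted p = 0.129). In the combination Psmc2 was 13.12, 13.02 and 13.39, above every vehicle array and overlapping with dexamethasone.

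The other ATPases differed less. Psmc1 had means of 11.20 ± 0.22, 11.62 ± 0.28 and 11.20 ± 0.13 (SD, n = 3) in vehicle, dexamethasone and the combination. Psmc4 had 11.09 ± 0.10, 11.40 ± 0.04 and 11.13 ± 0.08, and its dexamethasone arrays overlapped neither other group. Psmc3 had 11.51 ± 0.13, 11.66 ± 0.14 and 11.42 ± 0.04. Psmc6 had 11.14 ± 0.15, 11.29 ± 0.02 and 11.04 ± 0.17, and like Psmc3 it overlapped between vehicle and dexamethasone. A dim, untested probe set of Psmc4 differed in sign, at -0.21.

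The 11 non-ATPase subunits of the cap had changes from 0.42 to 1.06, with a median of 0.72. In 10 of the 11 the dexamethasone arrays lay above all vehicle arrays. Psmd4, the receptor that binds ubiquitin chains, was 10.60, 10.69 and 10.52 in vehicle, 11.95, 11.27 and 11.76 in dexamethasone and 10.48, 10.71 and 10.87 in the combination. Dexamethasone replicate 2 was the lowest of its group and still 0.58 above the vehicle array of its set. The difference from vehicle was 1.06 ± 0.22, a 2.08-fold level (adjusted p = 0.0601). It passed with a pseudocount of 64, with a filter at the 60th percentile and with the robust variance trend, at an adjusted p down to 0.0185.

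Psmd8, a subunit of the lid of the cap, was 10.32, 10.51 and 10.24 in vehicle, 11.53, 11.55 and 10.82 in dexamethasone and 10.24, 10.43 and 9.67 in the combination. The array of set C was the lowest of both hormone groups. The difference from vehicle was 0.94 ± 0.27 (adjusted p = 0.137). It passed with array set as a block and without the 2 arrays of raised Gapdh ratio, at an adjusted p down to 0.0287. The lid subunit Psmd3 differed by 0.82 ± 0.22 (adjusted p = 0.111), with arrays of 9.38, 9.29 and 9.66 in vehicle and 10.49, 9.87 and 10.44 in dexamethasone. Psmd2, a large scaffold of the base, was 12.04, 11.92 and 11.98 in vehicle and 13.11, 12.48 and 12.51 in dexamethasone, a difference of 0.72 ± 0.22 (adjusted p = 0.157).

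The lid subunits Psmd6 and Psmd12 each differed by 0.76 ± 0.22, and Psmd7, Psmd11 and Psmd13 by 0.50 to 0.56. Psmd11, a lid subunit known to promote assembly of the whole particle, had means of 12.06 ± 0.13, 12.61 ± 0.24 and 12.11 ± 0.22 (SD, n = 3) in vehicle, dexamethasone and the combination. Its groups for dexamethasone and vehicle did not overlap (0.54 ± 0.20, adjusted p = 0.240), a second probe set gave 0.55, and a dim untested probe set gave -0.27. Psmd14, the enzyme that cuts off the ubiquitin chain, had means of 10.99 ± 0.17, 11.41 ± 0.40 and 11.15 ± 0.28. It was the only non-ATPase whose groups overlapped (0.42 ± 0.25, adjusted p = 0.456), and its other 2 probe sets, at 0.57 and 0.45, did not overlap. Psmd1, the second scaffold of the base, differed by 0.43 ± 0.30.

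**Figure D2:**
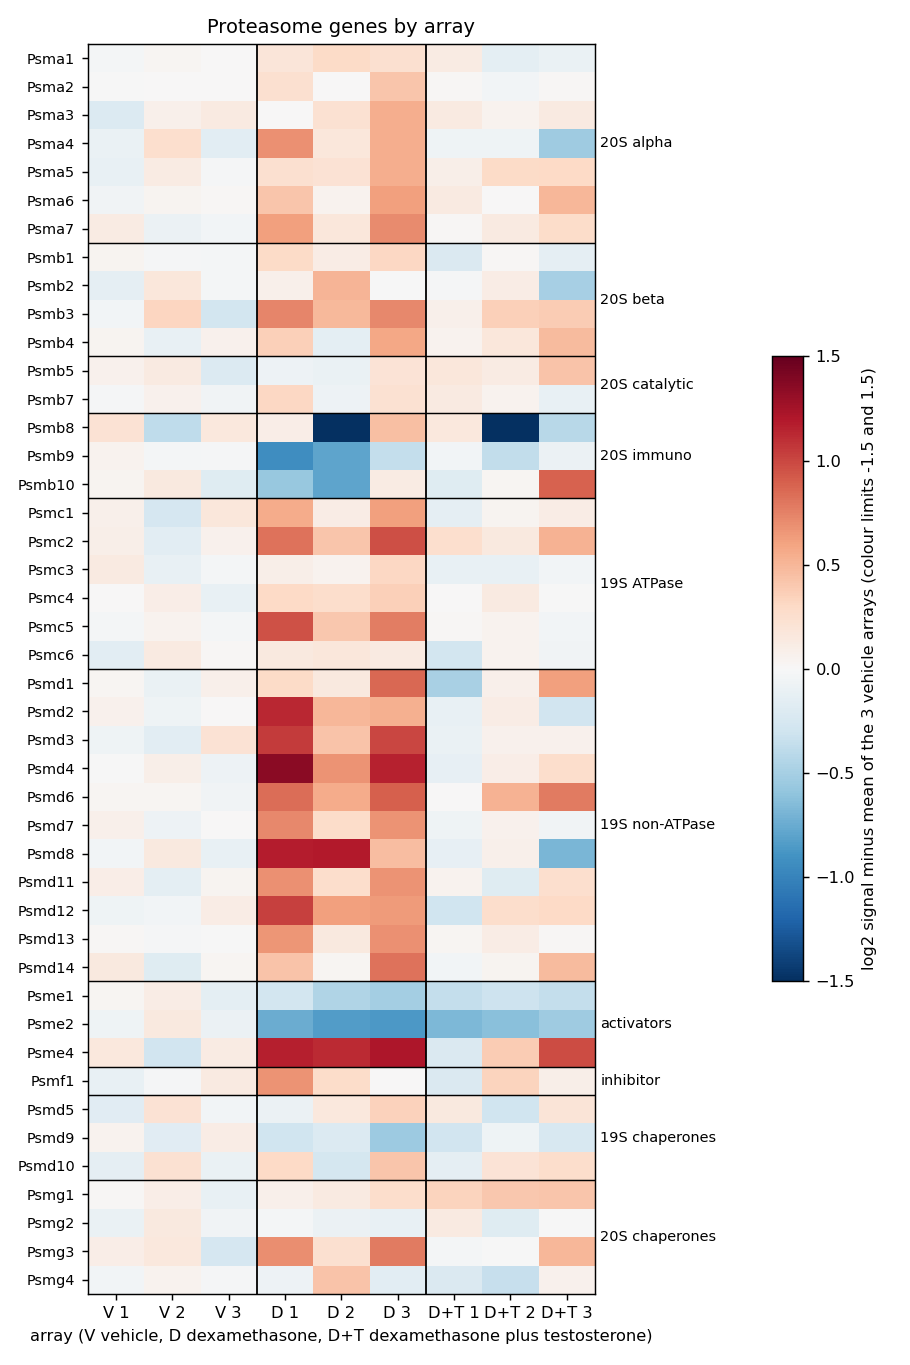
Rows are the 44 subunit and cofactor genes ordered by class, columns are the 9 arrays, and colour is the log2 signal minus the mean of the 3 vehicle arrays, with the scale ended at -1.5 and 1.5. Cap genes stood above the vehicle mean in all 3 dexamethasone columns, while Psmb9, Psme1 and Psme2 stood below it (after quantile normalization). Without scaling, the changes of Psme1 and Psme2 turned positive but stayed below the median of all genes.

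The activators split. Psme4 encodes PA200, a nuclear activator known for the breakdown of acetylated histones, and had the largest change of any member. It was 11.74, 11.30 and 11.71 in vehicle, 12.75, 12.70 and 12.80 in dexamethasone and 11.37, 11.97 and 12.56 in the combination. The dexamethasone arrays of Psme4 lay within 0.10 of each other and above every vehicle array, while the combination arrays spread over more than a log2 unit. The difference from vehicle was 1.17 ± 0.29, a 2.24-fold level (adjusted p = 0.0945), at 1.02 in set A and 1.40 in set B. Its other probe sets gave 0.76 (adjusted p = 0.0841) and 0.91 (adjusted p = 0.222), also without overlap. Without combination replicate 3, which enters the shared estimate of spread, the change passed at an adjusted p of 0.0486, and with the robust variance trend at 0.0371.

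Psme2, the PA28 beta subunit, was 10.25, 10.46 and 10.23 in vehicle, 9.57, 9.47 and 9.45 in dexamethasone and 9.64, 9.68 and 9.78 in the combination. All 6 hormone-treated arrays of Psme2 lay below all vehicle arrays, and the combination lay above dexamethasone without overlap. The difference between dexamethasone and vehicle was -0.82 ± 0.16, 1.76-fold lower (unadjusted p = 0.000731, adjusted p = 0.0561), at -0.67 in set A and -0.99 in set B. Without scaling between arrays it was 0.01, where the median of all genes was 0.60, and over the other alternatives the adjusted p went down to 0.0190.

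Psme1, the PA28 alpha subunit, was 11.05, 11.14 and 10.89 in vehicle, 10.75, 10.58 and 10.52 in dexamethasone and 10.68, 10.72 and 10.68 in the combination. As for Psme2, both hormone groups lay below vehicle without overlap. The difference for dexamethasone was -0.41 ± 0.17 (adjusted p = 0.279), and 0.46 without scaling between arrays, where the median of all genes was 0.60. A dim second probe set of Psme1 gave 0.35 ± 0.39 with overlapping groups.

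**Figure D3:**
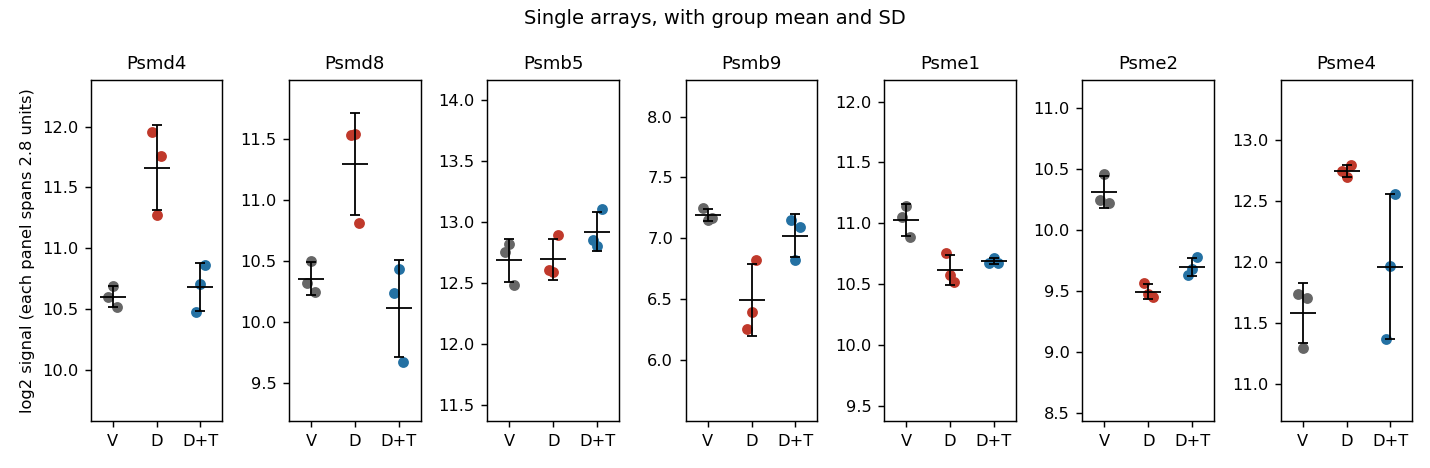
Points are single arrays of 7 genes, on the quantile normalized log2 scale, with the group mean and SD (V vehicle, D dexamethasone, D+T dexamethasone plus testosterone). Psmd4, Psmd8 and Psme4 were highest in the dexamethasone arrays, and Psmb9, Psme1 and Psme2 were below vehicle there. Without scaling between arrays, the changes of Psme1 and Psme2 were above 0 but below the median of all genes. Psmb5 overlapped in all 3 groups.

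Promoter sequence is shown for 5 members that hold a searched motif: Psme4 and Psme2, with the largest changes in each direction after dexamethasone, Psmd1 of the cap, and Psmb5 and Psmb10 of the constitutive and immunoproteasome cutting subunits. Of the 44 genes, 40 had an entry in the RefSeq promoter table (build GRCr8), and the 250 bases before the start were searched on both strands. Psma7 and the cap genes Psmd6, Psmd12 and Psmd14 had no entry. The antioxidant response element, TGACNNNGC, is bound by Nrf1 and Nrf2 with small Maf proteins, and Nrf1 is the known activator of proteasome subunit genes. The element was found in 6 of 40 members (15%), against 10.1% of 33469 promoters. They were Psme4, Psmd1, Psmb5, Psma3, Psmb2 and Psmd9. By class it was in 3 of 15 core genes (20%) and 1 of 14 cap genes (7.14%). Psmd9, which stood lower after dexamethasone, held 2 matches. The interferon-stimulated response element, with GAAA in 2 copies spaced by 2 bases, was found in 5 of 40 members (12.5%), among them Psme2 and Psmb10, against 3.41%. Capitals mark the match, and a match that lies on the other strand, as in Psme4, appears as its reverse complement.
Psme4, chr14:108706563-108706621, plus strand: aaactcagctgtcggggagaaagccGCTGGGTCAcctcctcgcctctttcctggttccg
Psmd1, chr9:94157781-94157839, plus strand: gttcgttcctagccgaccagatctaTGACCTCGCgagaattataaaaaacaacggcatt
Psmb5, chr15:32047406-32047464, minus strand: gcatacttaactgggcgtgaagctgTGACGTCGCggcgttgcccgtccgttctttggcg
Psme2, chr15:33052770-33052829, minus strand: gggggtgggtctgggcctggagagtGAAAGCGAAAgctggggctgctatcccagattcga
Psmb10, chr19:50743331-50743390, minus strand: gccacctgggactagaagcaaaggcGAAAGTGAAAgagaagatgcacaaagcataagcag
Psmb10, chr19:50743293-50743334, minus strand: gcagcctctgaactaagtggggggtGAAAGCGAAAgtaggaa

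The match in Psme4 lies 55 to 47 bases before the start, that in Psmd1 165 to 157 and that in Psmb5 60 to 52. Psmb5 holds the element and its groups overlapped in all 3 comparisons, and Psmd4 and Psmd8, with the largest cap changes, have no match in this window. The match in Psme2 lies 53 to 44 bases before the start, and those in Psmb10 lie 73 to 64 and 17 to 8 bases before it. Psma4, Psmb3 and Psmd7 also hold the interferon element, and their dexamethasone changes were 0.47 to 0.65. The CCAAT box was found in 19 of 40 members (47.5%), in 10 of 15 core genes and 5 of 14 cap genes, against 34% of all promoters, and in Psmb2 it overlaps the antioxidant element. The forkhead element TGTTTAC and the palindromic glucocorticoid response element (AGAACA and TGTTCT spaced by 3 bases) were in 0 of 40 members, against 3.21% and 0.012% of all promoters. These matches describe the letters only, and a binding site or a cause is not read from them.

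The inhibitor Psmf1, also called PI31, had means of 9.20 ± 0.13, 9.51 ± 0.34 and 9.26 ± 0.27 (SD, n = 3) in vehicle, dexamethasone and the combination, and its groups overlapped. The assembly chaperones, which help build the particle and leave it, had changes from -0.35 to 0.58 after dexamethasone, with a median of 0.14. Of those that build the core, Psmg3 had means of 8.84 ± 0.22, 9.42 ± 0.29 and 8.99 ± 0.30 and did not overlap between dexamethasone and vehicle (0.58 ± 0.24, adjusted p = 0.284). Psmg2 had 9.08 ± 0.13, 9.005 ± 0.05 and 9.06 ± 0.16, and Psmg4 had 10.11 ± 0.05, 10.17 ± 0.32 and 9.94 ± 0.21. Psmg1 was 10.11, 10.20 and 9.98 in vehicle, 10.17, 10.23 and 10.36 in dexamethasone and 10.43, 10.51 and 10.52 in the combination, so the combination stood above both other groups.

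Of the chaperones of the cap base, Psmd9 stood lower after dexamethasone by both of its probe sets, without overlap in either. The changes were -0.35 ± 0.18 (adjusted p = 0.408) and -0.59 ± 0.24 (adjusted p = 0.271). The former was 0.31 without scaling between arrays, where the median of all genes was 0.60. Psmd5 and Psmd10 differed by 0.14 and 0.15 and overlapped. Of the genes that carry only the name, Psmc3ip, a recombination factor, was 0.56 ± 0.23 above vehicle (adjusted p = 0.294) and Psme3ip1 0.07 ± 0.18.

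Adding testosterone to dexamethasone was compared with dexamethasone alone, and this comparison shares the dexamethasone arrays with the one above. The cap genes stood lower in the combination, with all 17 below 0, and in 12 of them the arrays of the groups did not overlap (background of lower probe sets 7.35%). The largest differences were in Psmd8, Psmd4, Psmd2 and Psmd3. The immunoproteasome genes Psmb10 and Psmb9 and the chaperone gene Psmg1 stood higher by the most. The third immunoproteasome gene, the dim Psmb8, differed by -0.23, and the groups overlapped in all 3 immunoproteasome genes.

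Of the 54 tested member probe sets 0 passed in limma, where 0.113% of all probe sets passed (0.0698% higher and 0.043% lower), and the lowest adjusted p of a member was 0.127. At an unadjusted p under 0.05, 13 members were lower (24.1%, background 5.36%) and 1 higher (1.85%, background 5.59%). In 21 members (38.9%) the combination lay below dexamethasone without overlap, against 7.35% of all probe sets, and in 2 (3.70%) above, against 7.24%. With the robust variance trend, 1 member passed, Psmd4, which was lower.

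Psmd8 differed by -1.19 ± 0.27, 2.27-fold lower (adjusted p = 0.134), and the difference was -1.30, -1.11 and -1.15 in sets A, B and C. Psmd4 differed by -0.98 ± 0.22 (adjusted p = 0.127), at -1.47, -0.57 and -0.89 in the sets. Psmd2 and Psmd3 each differed by -0.82 ± 0.22, with adjusted p of 0.202 and 0.200. In each of these 4 genes the groups were separate and every set showed the same direction. Psmc5 differed by -0.70 ± 0.19 (adjusted p = 0.202), the largest among the ATPases, whose median was -0.34. The median of the non-ATPase subunits was -0.57. The whole cap had medians of -0.77, -0.21 and -0.44 in sets A, B and C. In set A the combination is replicate 1 alone, the array with low Myh7 and Myh2. The part of that fibre difference in the set A values was not tested.

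In Psmd6, a lid subunit, the combination arrays were spread between the levels of the other groups. It was 11.25, 11.25 and 11.17 in vehicle, 12.07, 11.78 and 12.12 in dexamethasone and 11.24, 11.75 and 12.00 in the combination. In set A the combination, which is replicate 1 with its low Myh7 and Myh2, lay at the vehicle level. In sets B and C the combination came within 0.11 of dexamethasone, and the groups overlapped (-0.33 ± 0.22, adjusted p = 0.673).

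The 20S core had a median of -0.19 for the combination against dexamethasone, and 13 of its 16 genes were below 0. Without dexamethasone replicate 3 the core median was -0.06, and it was -0.16, -0.04 and -0.34 in sets A, B and C. Psma4, of the alpha ring, differed most among the core genes below 0, at -0.69 ± 0.23 (adjusted p = 0.304). Psma4 was 11.53, 11.02 and 11.39 in dexamethasone and 10.78, 10.78 and 10.31 in the combination, without overlap. The genes above 0 were Psmb10 (0.66 ± 0.33, adjusted p = 0.520), Psmb9 (0.53 ± 0.20, adjusted p = 0.384) and Psmb5 (0.23 ± 0.19, adjusted p = 0.735). Psmb10 minus Psmb7 differed by 0.79 (exact p = 0.2, adjusted 0.4) and Psmb8 minus Psmb5 by -0.46 (exact p = 0.5, adjusted 0.75). Both moved with single arrays: the former was 0.40 without combination replicate 3 and 1.06 without replicate 1, and the latter -1.08 without dexamethasone replicate 2 and -0.018 without combination replicate 2.

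Psme4 differed by -0.78 ± 0.29 between the combination and dexamethasone (adjusted p = 0.361), without overlap. The difference was -1.38, -0.73 and -0.24 in sets A, B and C, and the other Psme4 probe sets gave -0.28 and -0.95. Psme2 and Psme1 differed little, by 0.20 ± 0.16 (adjusted p = 0.726) and 0.07 ± 0.17 (adjusted p = 0.932). Without scaling between arrays they were at -0.08 and -0.21, where the median of all genes was -0.23. The dim probe set of Psme1 gave -0.78 ± 0.39. Psmg1 stood 0.23 ± 0.16 above dexamethasone (adjusted p = 0.677).

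**Figure D4:**
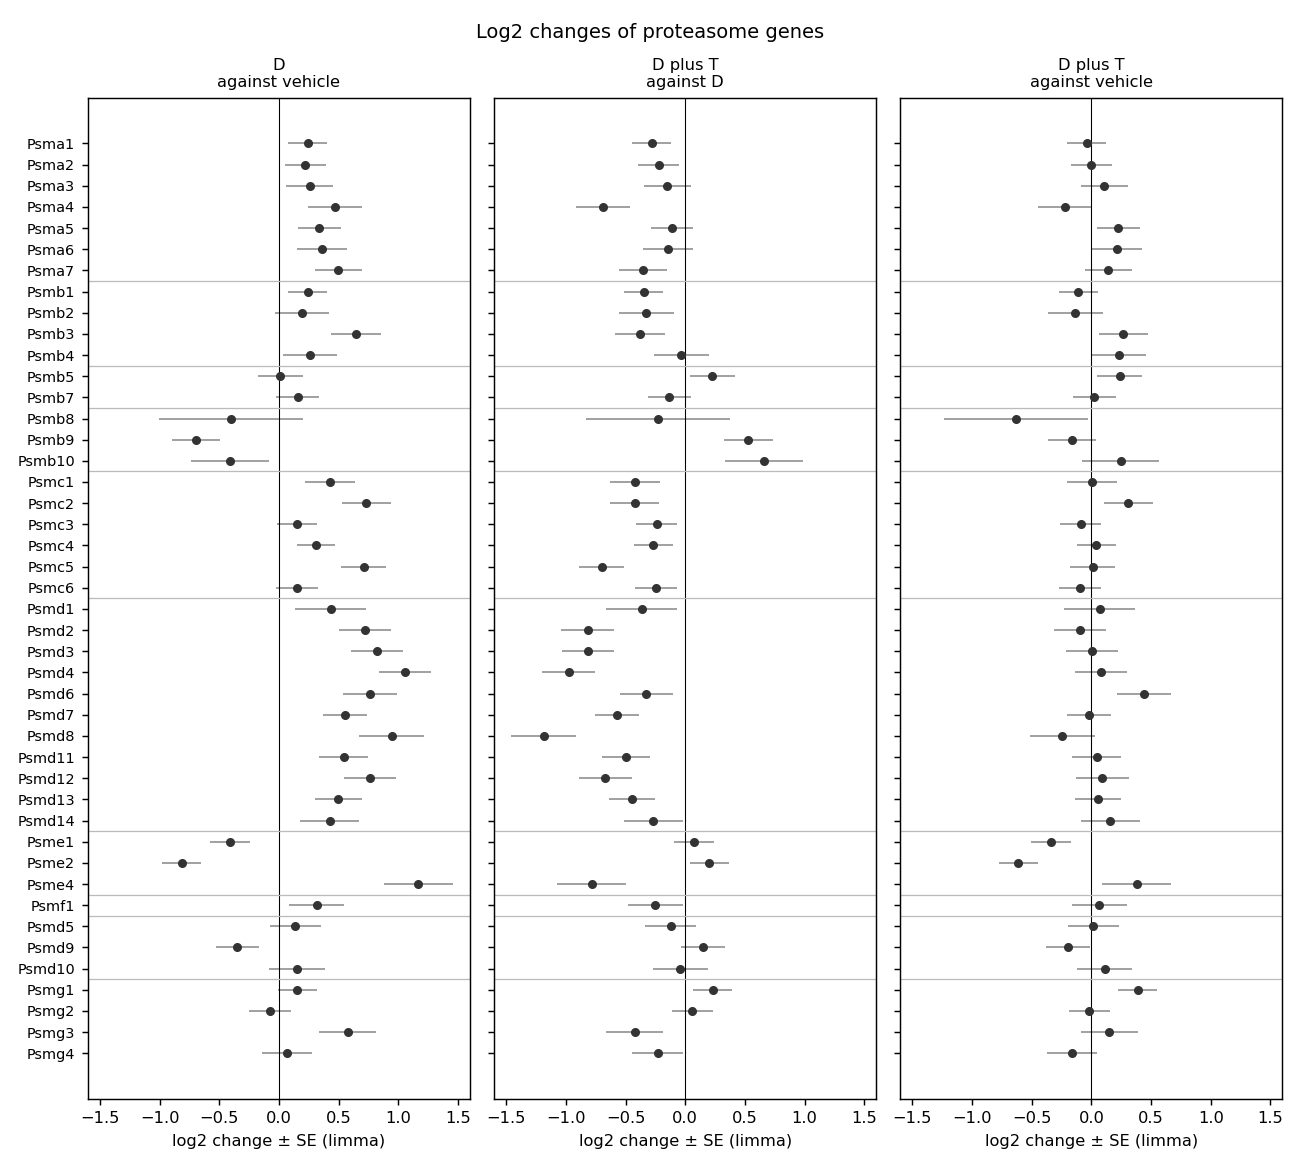
Points are log2 changes with the limma SE of the 44 genes, in the order of the class map, for dexamethasone (D) against vehicle, for dexamethasone plus testosterone (D plus T) against D, and for D plus T against vehicle. Cap genes from Psmc1 to Psmd14 lay above 0 on the left and below 0 in the middle, and between -0.24 and 0.44 on the right. Psme1 and Psme2 lay below 0 on the left and on the right. Without scaling between arrays both were above 0 on the left, and Psme1 on the right, in each case below the median of all genes.

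Against vehicle, muscles given both hormones differed least. In limma, 0 of 54 member probe sets passed and 0 of all 18625 passed (0%). At an unadjusted p under 0.05, 2 members were higher and 1 lower, against 3.16% and 2.95% of all probe sets. The arrays did not overlap in 4 members that were higher and 3 that were lower, which is near the background of 7.53% and 5.79%. The cap median was 0.04 and the core median 0.07, against 0.03 for all genes. This closeness to vehicle depended on the scaling. Relative to all genes, the cap was at 0.20 with median scaling and 0.24 without scaling, and the core at 0.20 and 0.25.

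The largest differences above vehicle were in Psmd6 (0.44 ± 0.22, adjusted p = 0.832), Psmg1 (0.39 ± 0.16, adjusted p = 0.815) and Psme4 (0.38 ± 0.29, adjusted p = 0.889). Psmd6 and Psme4 overlapped with vehicle, and Psmg1 did not. The Psme4 probe sets disagreed here, at 0.38, 0.48 and -0.04. Below vehicle, Psmb8 differed by -0.63 ± 0.60 (adjusted p = 0.900), Psme2 by -0.61 ± 0.16 (unadjusted p = 0.00453, adjusted p = 0.802) and Psme1 by -0.34 ± 0.17 (adjusted p = 0.830). Psme1, Psme2 and Psmb9, the latter at -0.17 ± 0.20 in the combination, were the 3 members whose arrays lay below all vehicle arrays in both hormone groups. For Psmb9 this was nearly a tie, with combination replicate 1 at 7.152 and vehicle replicate 2 at 7.155. Without scaling between arrays Psme2 was -0.06 and Psme1 0.24 against vehicle, where the median of all genes was 0.38. Psmb8 minus Psmb5 differed by -0.87 (exact p = 0.2, adjusted 0.4) and Psmb10 minus Psmb7 by 0.22 (exact p = 0.9, adjusted 0.9). Without combination replicates 1 and 2 in turn the former was -1.29 and -0.43, and without combination replicates 1 and 3 in turn the latter was 0.49 and -0.17.

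Genes that work with the proteasome were read from lists chosen for their role, and 0 genes of these lists passed in any comparison. Of 6 genes of the transcription factors that drive proteasome genes and their regulators, 5 of them tested, all were above vehicle after dexamethasone, with a median of 0.71, and all were below dexamethasone in the combination, with a median of -0.48. Keap1, which marks Nrf2 for degradation, was 9.55, 9.35 and 9.37 in vehicle, 10.65, 10.22 and 10.65 in dexamethasone and 9.53, 9.59 and 10.02 in the combination. Its dexamethasone arrays lay above both other groups, by 1.08 ± 0.21 over vehicle (adjusted p = 0.0523). Mafk, a small Maf partner, differed by 0.89 ± 0.20 (adjusted p = 0.0776). Nfe2l1, which encodes Nrf1, was 9.32, 9.16 and 9.30 in vehicle, 9.71, 9.53 and 9.41 in dexamethasone and 9.07, 9.33 and 9.23 in the combination, a difference of 0.29 from vehicle without overlap. Nfe2l1 was named after its values were seen, for its role.

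Of 13 measured proteasome partners without a Psm symbol, 10 were above vehicle, with a median of 0.24. The lowest unadjusted p among them belonged to Ube3c, a ubiquitin ligase on the particle, at -0.41 ± 0.20 (adjusted p = 0.376), and Adrm1, a ubiquitin receptor of the cap, at 0.52 ± 0.26 (adjusted p = 0.390). The 9 genes of the p97 complex, which extracts substrates for the proteasome, had a median of 0.20, with Faf1 at 0.41 ± 0.21 and Ubxn1 at -0.43 ± 0.22. The 4 ubiquitin genes have no probe set with a single symbol and were not analysed here. The ubiquitin-activating enzymes Uba1 and Uba6 were at -0.01 ± 0.17 and -0.00 ± 0.19. In the combination against dexamethasone, Ubxn1 stood 0.57 ± 0.22 higher (adjusted p = 0.386) and Nploc4, a p97 adaptor, differed by -0.64 ± 0.31 (adjusted p = 0.494). In the same comparison the partners Txnl1 and Rad23b, a shuttle for ubiquitylated proteins, differed by -0.46 ± 0.23 and -0.31 ± 0.18, and Nfe2l2, which encodes Nrf2, by -0.57 ± 0.19 (adjusted p = 0.315). Against vehicle, the differences of lowest p in the combination were 0.50 in Mafk, 0.54 in Nlrc5, -0.34 in Vcp, 0.41 in Adrm1 and 0.30 in Uba6, with adjusted p of 0.815 to 0.868.

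Of 12 measured genes of interferon signalling and antigen presentation, 3 were above vehicle after dexamethasone, with a median of -0.22. In the combination against dexamethasone 11 of the 12 were above 0, with a median of 0.36. Irf9, a subunit of the factor that binds the interferon element, was 8.05, 8.06 and 7.87 in vehicle, 7.18, 7.51 and 7.38 in dexamethasone and 8.11, 7.74 and 7.97 in the combination. The dexamethasone arrays of Irf9 lay below all others, by -0.64 ± 0.18 against vehicle (adjusted p = 0.140). Irf1 stood at -0.74 ± 0.25 (adjusted p = 0.197), also without overlap. Changes of this list were not computed without scaling between arrays, where the median of all genes for dexamethasone against vehicle was 0.60. Irf7 was 1.14 ± 0.45 higher in the combination than in dexamethasone (adjusted p = 0.403), with overlap.

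Markers of connective tissue and vessels were read in the same way, on the quantile normalized scale only. The summed normalized intensity of 10 fibroblast markers was 36572 to 55514 in vehicle, 8588 to 30371 in dexamethasone and 21166 to 43741 in the combination, and Mfap5, a microfibril gene, passed the test (-1.75 ± 0.29, adjusted p = 0.0338). The sum of 9 endothelial markers was 3463 to 4040 in vehicle, 2563 to 2966 in dexamethasone and 2726 to 2948 in the combination. The sum of 2 erythroid markers was 5369 to 7689, 1157 to 4614 and 2720 to 6056 in the same order. These 3 sums were lower in every dexamethasone array than in any vehicle array. So were 4 of the 44 member genes (Psme1, Psme2, Psmb9 and Psmd9) and 1400 of all 14217 genes, on the quantile normalized scale. No marker of adipocytes, smooth muscle and pericytes, erythroid cells or Schwann cells passed the test, with median changes after dexamethasone of 0.30, -0.21, -1.11 and -0.18. The part of these cells in the proteasome values was not tested. The sum of muscle fibre markers was 320948 to 333275 in vehicle, 324233 to 329759 in dexamethasone and 278487 to 323019 in the combination.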

How the data were processed

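The values are the authors' deposited intensities, a single linear signal for each of 31099 probe sets on 9 arrays. The signal algorithm is not given in the sources used here. Without the 57 controls, values were taken as log2(intensity + 16) and, because array medians spanned 1.82, quantile normalized. Changes are on this scale, which understates those of dim probe sets. The filter kept 18625 probe sets whose mean reached the 40th percentile, among them 54 of the 58 of proteasome genes. The limma test (limma 3.58.1, R 4.3.3) fitted 3 group means over all 9 arrays, with Benjamini-Hochberg adjustment within each comparison and called at 0.05. The code was tested on simulated data. Precision is limited by the number of arrays.

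Symbols came from the platform annotation, updated by gene ID to GRCr8. Of 31042 probe sets, 20826 had 1 symbol, 436 several and 9780 none. Where a gene had several probe sets, as 9 proteasome genes did, the brightest on average stands for it. Genes named by rule were Psmb5 to Psmb10, Psmc1 to Psmc6, Psmd4, Psmd11, Psmd14, Psme1 to Psme4, Psmf1 and Psmg1 to Psmg4, the 3 largest differences in each direction, and in each other list the 2 genes of lowest p. Psma4, Psma7, Psmb3, Psmd1 to Psmd3, Psmd6, Psmd9 and Psmd12 were named in addition, as examples of their classes. Members, lists and examples were chosen with earlier results of these data known. Array sets were read from scaling and Gapdh ratios. Alternatives changed the normalization, pseudocount (1, 64), filter, arrays, blocks, groups fitted and variance model.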

Additional observations from a re-analysis of the deposited data

How the results depend on the processing

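No member gene was called in the reported analysis, and 0 alternative values passed the threshold with another sign than the reported value. Of 880 alternative values of single member genes in each comparison, 12 had another sign than the reported value for dexamethasone against vehicle, 21 for the combination against dexamethasone and 81 for the combination against vehicle, and 13 of all 2640 newly passed. The number of probe sets past the threshold depended on the settings. For dexamethasone against vehicle it was 196 as reported, 23 without scaling between arrays, 54 and 414 with a pseudocount of 1 and 64, 48 without a filter, 469 with a filter at the 60th percentile, 123 with only the 2 groups fitted, 448 without the 2 arrays of raised Gapdh ratio and 510 with limma's robust variance trend over intensity. For the combination against dexamethasone it was 21, then 2, 5, 102, 0, 83, 0, 0 and 149 in that order, and 3 with median scaling. Leaving out single arrays gave 1 to 337 and 0 to 68 calls. The former was 5, 1 and 1 without vehicle replicates 1, 2 and 3, 3, 10 and 337 without dexamethasone replicates 1, 2 and 3, and 53 without combination replicate 2. For the latter it was 5, 1 and 0 without the vehicle replicates, 68 without dexamethasone replicate 3 and 0 without each of the other 5. The combination against vehicle had 0 calls under every alternative.

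Member probe sets past the threshold for dexamethasone against vehicle numbered 0 as reported, 3 with a pseudocount of 64 and 3 with the 60th percentile filter (Psmd4, Psme4 and, lower, Psme2), 2 with array set as a block and 2 without the arrays of raised Gapdh ratio (Psmd8 and Psme4), 6 with the robust trend (Psmc2, Psmc5, Psmd4 and Psme4 higher, Psme2 lower) and 0 to 1 without single arrays, the 1 being Psme4 without combination replicate 3. In all but the last and the robust trend, the Psme4 probe set that passed was not the one with the highest mean. For the combination against dexamethasone 1 passed with the robust trend, and 0 without any single array.

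With a replicate block, 13 and 0 probe sets passed in the comparisons with the dexamethasone arrays, 0 of them members, and no member's call changed. The labels do not state that equal numbers pair the animals. Correlations of deviations between equal numbers were 0.03, 0.30 and 0.11 for dexamethasone and vehicle and 0.06, 0.37 and 0.59 for the combination and dexamethasone, and 6 of 9 arrays correlated best with an array of their own number.

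Medians moved with the scaling. With median scaling the median of all genes was 0.15 for dexamethasone against vehicle and 0.17 for the combination against vehicle. Without scaling it was 0.60, -0.23 and 0.38 for dexamethasone against vehicle, the combination against dexamethasone and the combination against vehicle. Under median scaling and without scaling, the dexamethasone medians were 0.52 and 1.08 for the core, 0.85 and 1.41 for the cap, -0.10 and 0.46 for the activators and 0.38 and 0.93 for the chaperones. Relative to all genes they were 0.37 and 0.48, 0.70 and 0.82, -0.25 and -0.14, and 0.23 and 0.33. For the combination against dexamethasone, the medians without scaling were -0.44, -0.70, -0.21 and -0.34 in the same order of classes. For the combination against vehicle, with median scaling and without scaling, they were 0.37 and 0.63, 0.36 and 0.62, -0.020 and 0.24, and 0.26 and 0.51. Relative to all genes these were 0.20 and 0.25, 0.20 and 0.24, -0.19 and -0.14, and 0.09 and 0.13. Over all probe sets in place of 1 per gene, the activator median was 0.56, -0.53 and -0.19 in the 3 comparisons, as Psme4 has 3 probe sets, and the core median of the combination against vehicle was 0.13. With array set as a block that core median was -0.0024, the chaperone median for dexamethasone 0.036 and Psmb10 minus Psmb7 -0.91. Without the arrays of raised Gapdh ratio the chaperone median for dexamethasone was 0.033. Leaving out single arrays gave 0.033 to 0.21 for that median, 0.16 to 0.29 for the core and 0.50 to 0.70 for the cap after dexamethasone, -0.62 to -0.35 for the cap in the combination against dexamethasone, and 0.011 to 0.080 for the core in the combination against vehicle. The cause of these shifts was not tested.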
